A study of Mus musculus with 12 samples.

Results

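Cold Dounce homogenization with and without inhibitors of gene expression was compared in sorted brain myeloid cells. The comparison rests on the 6 libraries labelled Dounce, of 12 in the series, taken as the 3 prepared without inhibitors (DNC-NONE, replicates 1 to 3) against the 3 prepared with them (DNC-INHIB, replicates 4 to 6). Barcodes with at least 500 genes, at least 1000 UMIs (unique molecular identifiers, each a captured transcript) and at most 10% mitochondrial UMIs were kept. This left 9771 of 15748 deposited Dounce barcodes, 4090 in DNC-NONE and 5681 in DNC-INHIB, out of 18830 kept cells in the whole series. UMIs were then summed over the kept cells of each library, so that each animal gave 1 value per gene, as UMIs of the gene per 1000000 UMIs of the library (CPM).

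Every library came from the whole brain of a male C57BL/6J mouse at postnatal day 90, and all 6 brains were handled cold. The cells were sorted by flow cytometry as CD45 and CD11b positive, and counted with a 10X Genomics 3' version 2 kit. In DNC-INHIB the perfusion, dissection and homogenization buffers carried inhibitors, and in DNC-NONE the same steps were done without them. The other 6 libraries were digested with enzymes, without (ENZ-NONE) or with (ENZ-INHIB) the inhibitors. DNC-NONE replicates 1 and 2 and DNC-INHIB replicate 4 were labelled batch 1, and DNC-NONE replicate 3 and DNC-INHIB replicates 5 and 6 batch 2. The question was whether the inhibitors themselves change the transcriptome of cells that were kept cold.

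Microglia are the resident macrophages of the brain, and they switch on immediate early genes, chemokines and chaperones when disturbed. Actinomycin D and triptolide block transcription, and anisomycin blocks translation. CD45 and CD11b also mark macrophages at the brain's borders, monocytes, some dendritic cells and neutrophils, which reach the sort from blood, meninges or choroid plexus. The meninges were removed by hand, as completely as possible.

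The 6 libraries held between 1062871 and 3233159 UMIs in kept cells. The share of barcodes kept was 52.4% ± 19.2 (SD, n = 3) in DNC-NONE and 71.2% ± 8.59 (n = 3) in DNC-INHIB, with overlap between the groups (exact permutation test, two-sided, p = 0.3). DNC-NONE replicate 2 stood apart here, with 855 of 2513 barcodes kept (34.0%). Median UMIs per kept cell were 1208 ± 58.8 in DNC-NONE and 1326 ± 71.2 in DNC-INHIB without overlap (exact permutation test, p = 0.1, the smallest that 3 against 3 allows). After thinning of every cell to 1000 UMIs, the median number of genes per cell was 621 ± 1.53 and 622 ± 2.52. Any pair of libraries shared 0 to 5 kept barcodes, and no pair agreed within counting noise (chi-square 1.76 to 4.80 per degree of freedom within a group). Libraries also stood apart in other ways. DNC-NONE replicate 1 was high in activation genes, and DNC-NONE replicates 3 and 2 were high in neutrophil genes.

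The groups differed little. The genes with the smallest p-values that were higher without inhibitors mostly had their UMIs in cells with markers of other cell types. Of 9884 genes tested with edgeR's quasi-likelihood test, 2 (0.0202%) passed a Benjamini-Hochberg adjusted p of 0.05 and a fold of 1.5, both higher in DNC-NONE, and 0 were higher in DNC-INHIB. At an unadjusted p under 0.05 there were 486 genes, 262 higher in DNC-NONE (2.65%) and 224 higher in DNC-INHIB (2.27%). DESeq2 also called 2 genes, 1 of them in common (Napsa), and the other was Hist1h4d. In counts simulated on these libraries, edgeR recovered 32% of 50 genes changed 1.5-fold and 90% of 50 genes changed 2-fold. The changed genes were drawn only from those with higher mean counts, so recovery of genes with few UMIs was not tested. The median log2 fold change over all genes was 0.0018 (DNC-NONE minus DNC-INHIB, the direction of every fold change given here). The scaling of the libraries to each other (TMM) holds this median near 0, so it does not bear on a change common to all genes.

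Napsa, which encodes the aspartic peptidase napsin A (ENSMUSG00000002204; GRCm38 chr7:44572380-44586862, plus strand), was at 30.0, 14.1 and 21.1 CPM in DNC-NONE replicates 1, 2 and 3. It was at 4.75, 7.22 and 7.73 CPM in DNC-INHIB replicates 4, 5 and 6. Each DNC-NONE library lay above each DNC-INHIB library, and the log2 fold change was 1.77 ± 0.27 (SE; edgeR adjusted p = 0.0133). Within batch 1 the group means were 22.1 and 4.75 CPM, and within batch 2 they were 21.1 and 7.48 CPM.

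Gsr, the glutathione reductase that restores reduced glutathione (ENSMUSG00000031584; GRCm38 chr8:33652523-33698163, plus strand), was at 68.4, 53.6 and 43.3 CPM in DNC-NONE. It was at 31.4, 28.1 and 28.1 CPM in DNC-INHIB, again without overlap between the groups. The log2 fold change was 0.94 ± 0.16 (edgeR adjusted p = 0.0274). Both calls depended on the processing. Over 16 alternatives the adjusted p of Napsa ran from 1.34e-08 to 1, and over 17 that of Gsr ran from 2.26e-06 to 1, with Napsa called in 9 and Gsr in 5.

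Cells with UMIs of at least 3 markers of another cell type, from lists of 5 to 8 (border macrophages, monocytes, MHC class II and dendritic cells, neutrophils, lymphocytes, red blood cells, neurons, astrocytes, oligodendrocytes or vessels) held most of the Napsa UMIs. The MHC class II and dendritic list holds H2-Aa, H2-Ab1, H2-Eb1 and Cd74, so a cell with MHC class II genes alone was also marked. These cells were 72 of 1839, 58 of 855 and 41 of 1396 kept cells in DNC-NONE, and 26 of 1544, 43 of 1952 and 56 of 2185 in DNC-INHIB. They gave 5.89% of all UMIs in DNC-NONE and 3.17% in DNC-INHIB. Of the Napsa UMIs, 125 of 128 in DNC-NONE and 52 of 54 in DNC-INHIB lay in them, although Napsa is on none of the marker lists. Of the Gsr UMIs, 141 of 306 (46.1%) in DNC-NONE and 35 of 231 (15.2%) in DNC-INHIB lay in them.

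Without those cells, edgeR called 0 of 9701 genes, and 406 had an unadjusted p under 0.05 (186 higher in DNC-NONE, 1.92%, and 220 higher in DNC-INHIB, 2.27%). Gsr was then at 35.2, 38.2 and 26.1 CPM in DNC-NONE and at 28.8, 25.6 and 23.1 CPM in DNC-INHIB, and the groups overlapped. In 4.77% of the genes then tested DNC-NONE lay wholly above DNC-INHIB, and in 4.7% wholly below. The log2 fold change of Gsr was 0.35 ± 0.17 (edgeR adjusted p = 0.999). Napsa was left with 0 to 0.849 CPM in any library and was too low to test. Of the 10 genes with the smallest p among those higher in DNC-NONE, only 1, Gsr, could then be tested. The 0 calls therefore do not bear on the rest of those genes. A sum per library does not by itself tell more cells of a type from more RNA per such cell. Counts of the marked cells and of UMIs in them are given above, and UMIs of a gene per marked cell were not compared.

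The 10 genes with the smallest p among those higher in DNC-NONE were Napsa, Gsr, Mgst1, Pbk, Emb, Rgs18, Hp, Gas7, Glipr2 and Mmp12. Between 16.2% and 98.8% of their UMIs lay in cells with markers of other types, with a median of 89.97%, against a median of 3.33% over all genes tested. Emb is itself 1 of the monocyte markers that define such cells, and the other 9 are on no marker list. Hp, which encodes the haemoglobin-binding protein haptoglobin, was at 41.2, 20.7 and 38.3 CPM in DNC-NONE and at 3.80, 4.56 and 11.4 CPM in DNC-INHIB (log2 fold change 2.30 ± 0.37, edgeR adjusted p = 0.156). Mgst1, a microsomal glutathione transferase, was at 15.6, 10.3 and 13.9 CPM and at 2.38, 1.90 and 5.88 CPM (1.92 ± 0.36, adjusted p = 0.0640). Rgs18, a regulator of G protein signalling in blood cells, was at 8.80, 16.0 and 10.6 CPM and at 4.28, 2.28 and 3.402 CPM (1.74 ± 0.36, adjusted p = 0.122). For all 10 the DNC-NONE libraries lay above the DNC-INHIB libraries, against 4.93% of all genes, but these 10 were picked by their p.

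Gas7 had a log2 fold change of 1.67 ± 0.37 and Glipr2 of 2.21 ± 0.53. Most of their UMIs lay in the marked cells (85.7% and 95.3%). Pbk and Mmp12 did not, with 16.2% and 17.1%. Pbk, a mitotic kinase, had 31 UMIs without and 6 with inhibitors (2.85 ± 0.55), and Mmp12, macrophage elastase, had 30 and 5 (3.05 ± 0.72). None of these 4 passed the adjusted threshold (edgeR adjusted p = 0.0641 to 0.345).

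**Figure D1:**
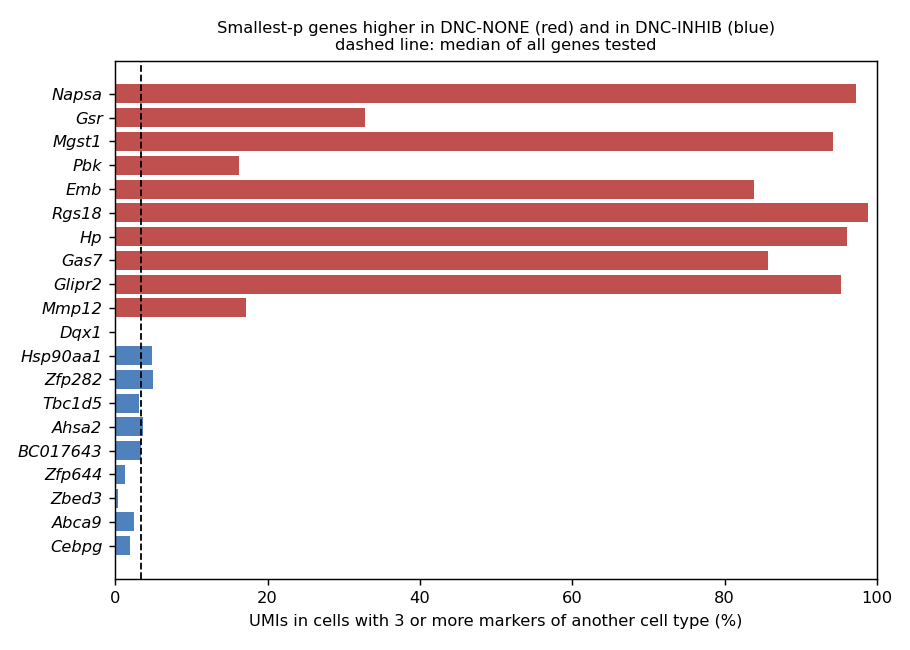
Bars give the percent of a gene's UMIs, over the 6 Dounce libraries, that lay in cells with 3 or more markers of another cell type, for the 10 smallest-p genes higher in DNC-NONE (red) and the 10 higher in DNC-INHIB (blue). The red bars run from 16.2% to 98.8% and the blue bars from 0% to 5.03%, with the dashed line at the median of all genes tested, 3.33%.

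Monocytes are circulating precursors of macrophages. All 7 tested members of the monocyte list (of 8) had a positive log2 fold change, with a median of 1.55 against 0.0018 over all genes. None was called, 5 had an unadjusted p under 0.05 (against 2.65% of all genes), and in 4 the DNC-NONE libraries all lay above the DNC-INHIB libraries (against 4.93% of all genes). Chil3, a chitinase-like secreted protein of monocytes, was at 34.8, 48.9 and 148 CPM in DNC-NONE and at 5.70, 2.66 and 17.6 CPM in DNC-INHIB (log2 fold change 3.03 ± 1.00, edgeR adjusted p = 1.00). Ly6c2, a surface antigen of inflammatory monocytes, was at 28.8, 3.76 and 22.2 CPM and at 0.9505, 1.90 and 6.50 CPM (2.55 ± 0.84), so that DNC-NONE replicate 2 lay inside the DNC-INHIB range.

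Ccr2, the chemokine receptor that brings monocytes out of the marrow, was at 96.9, 83.7 and 30.5 CPM in DNC-NONE and at 27.6, 22.4 and 39.3 CPM in DNC-INHIB, with overlap (1.22 ± 0.53). Emb, which encodes the membrane glycoprotein embigin, was at 28.8, 17.9 and 11.7 CPM and at 7.13, 6.46 and 7.11 CPM, without overlap (1.55 ± 0.29, edgeR adjusted p = 0.0641). S100a4 (1.45 ± 0.43), Ifitm6 (1.11 ± 0.27) and Plac8 (1.69 ± 1.01) had the same sign. Leaving out DNC-NONE replicate 1, the median of the list fell to 0.82, and leaving out another library gave 1.35 to 1.83.

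**Figure D2:**
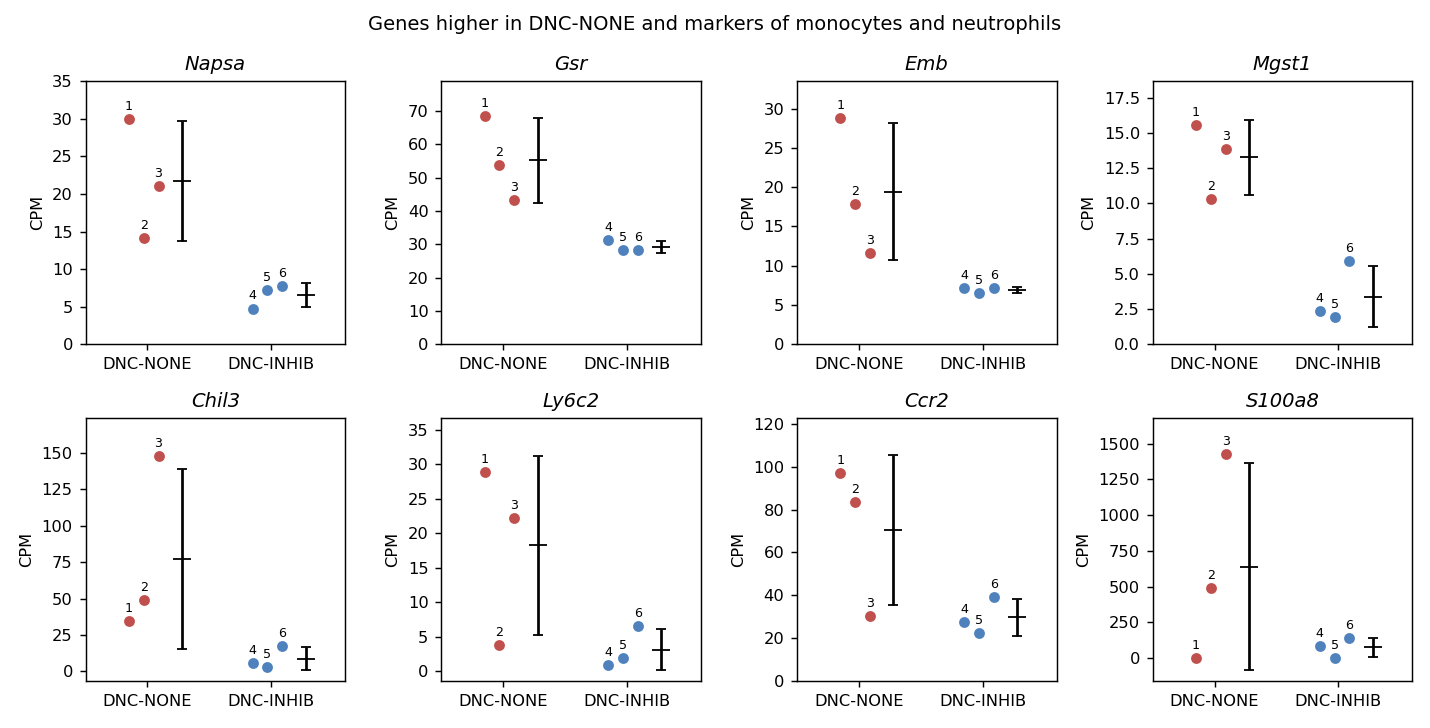
Points give CPM (y axis, linear) of 8 genes in the 6 Dounce libraries, numbered by replicate, with DNC-NONE in red and DNC-INHIB in blue, and bars give the mean ± SD (n = 3). The groups are apart for Napsa, Gsr, Emb, Mgst1 and Chil3, and they overlap for Ly6c2, Ccr2 and S100a8.

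Counted as cells, 3 or more monocyte markers were found in 1.74%, 0.702% and 0.788% of the DNC-NONE cells after thinning to 1000 UMIs. In DNC-INHIB the shares were 0.130%, 0.307% and 0.458%. The groups did not overlap (exact permutation test, p = 0.1, n = 3 per group), but the cells were few, 32, 6 and 11 against 2, 6 and 10. Over all deposited barcodes the shares were 1.49%, 0.358% and 0.693% against 0.121%, 0.366% and 0.546%, and the groups overlapped (exact permutation test, p = 0.3). Marked without thinning, such cells numbered 37, 7 and 16 in DNC-NONE and 3, 10 and 13 in DNC-INHIB. In each library these held more UMIs than the rest, with medians of 1811 to 2274 against 1150.5 to 1406.5. Without thinning, a cell with more UMIs reaches 3 markers more easily. Exact 95% intervals on the shares after thinning cover counting error only. They ran from 1.19% to 2.45% in DNC-NONE replicate 1 and from 0.0157% to 0.467% in DNC-INHIB replicate 4. Whether blood left after perfusion differed between the animals was not tested.

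**Figure D3:**
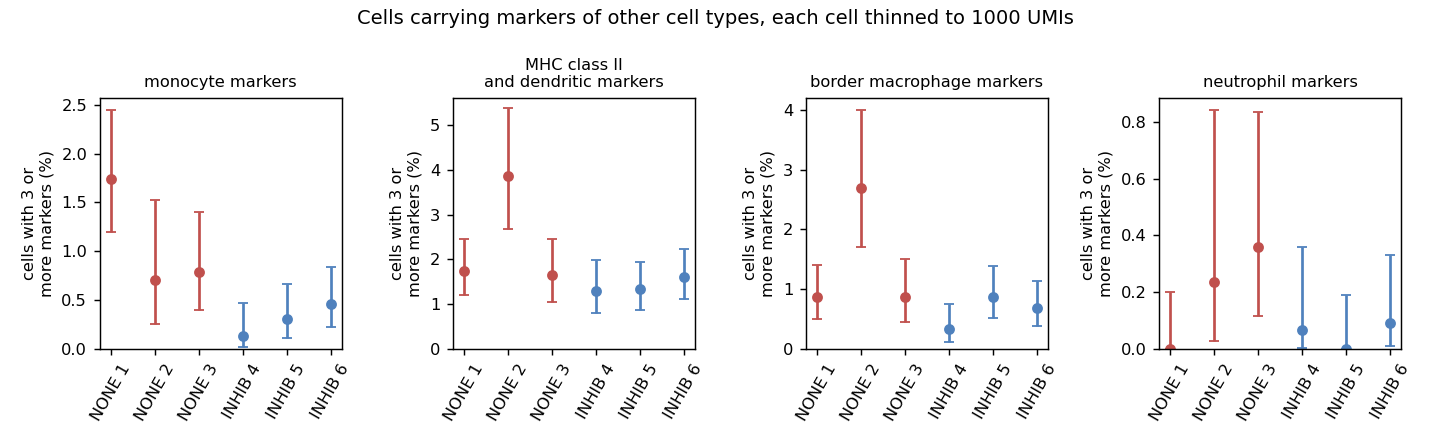
Points give the percent of kept cells with 3 or more of 8 markers in each Dounce library (x axis) for 4 cell types, with exact 95% intervals for counting error. DNC-NONE (red) ran from 0.702% to 1.74% and DNC-INHIB (blue) from 0.130% to 0.458% for monocyte markers, while for border macrophage and MHC class II markers DNC-NONE replicate 2 alone was high.

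Neutrophil genes were high in single libraries. S100a8, a subunit of the calcium-binding protein calprotectin, was at 0, 491 and 1426 CPM in DNC-NONE and at 80.8, 2.66 and 138 CPM in DNC-INHIB (3.09 ± 2.04, edgeR adjusted p = 1.00). Ngp, neutrophilic granule protein, was at 0, 643 and 1253 CPM and at 117, 2.66 and 109 CPM (3.05 ± 2.00). All 6 tested members (of 8) had a positive sign and were highest in DNC-NONE replicate 3 (against 17.0% of all genes), and 0 had an unadjusted p under 0.05. Their median of 2.85 became 1.23 without that library. The marked cells numbered 0, 2 and 5 in DNC-NONE and 1, 0 and 2 in DNC-INHIB, where 0 of 1839 cells allows a share of up to 0.163% and 0 of 1952 of up to 0.154%, taken as 3 counts of the total.

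Antigen-presenting and border macrophage genes were mostly highest in DNC-NONE replicate 2, the library with the fewest cells kept (4 of 5 and 6 of 7 tested members). Of all genes 22.1% were highest in that library. The median of the MHC class II and dendritic list was 0.53, and 0.18 without that library. Cd74, the invariant chain of MHC class II, was at 2173, 4389 and 1693 CPM in DNC-NONE and at 1871, 1486 and 1704 CPM in DNC-INHIB (0.70 ± 0.42). Cells with 3 or more MHC class II and dendritic markers made up 1.74%, 3.86% and 1.65% in DNC-NONE and 1.30%, 1.33% and 1.602% in DNC-INHIB, apart by a narrow margin (exact permutation test, p = 0.1). Over all barcodes these groups overlapped (exact permutation test, p = 0.3).

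Mrc1, the mannose receptor of border macrophages, was at 29.2, 76.2 and 14.99 CPM in DNC-NONE and at 19.01, 26.6 and 24.1 CPM in DNC-INHIB (0.59 ± 0.64). F13a1, coagulation factor XIII A, was at 59.2, 71.5 and 18.9 CPM and at 16.2, 27.0 and 21.0 CPM (1.15 ± 0.55). Cells with 3 or more border macrophage markers were 0.870%, 2.69% and 0.860% of DNC-NONE and 0.324%, 0.871% and 0.686% of DNC-INHIB, with overlap (exact permutation test, p = 0.3). Of 7 tested border macrophage genes 6 had a positive sign, with a median of 0.59, which became 0.03 without DNC-NONE replicate 2. Cells with 3 or more lymphocyte, red blood cell or astrocyte markers numbered 0 in all 6 libraries.

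Heat shock chaperones, which refold or hold damaged proteins, leaned the other way. Of 13 tested members (of 14), 12 had a negative log2 fold change, meaning higher in DNC-INHIB, and the median was -0.35 against 0.0018 over all genes. None was called, 7 had an unadjusted p under 0.05 in that direction (against 2.27% of all genes), and in 2 the groups did not overlap (against 5.02%). Of the Hsp90aa1 UMIs 4.84% lay in cells with markers of other types, and of the Dnajb1 UMIs 2.92%. Without those cells the median was -0.35 and again 7 members had an unadjusted p under 0.05. In 10 of the 13 the highest library was DNC-INHIB replicate 5, which was the highest for 13.8% of all genes. The median was -0.18 without that library, against -0.39 to -0.30 without any other library.

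Promoter letters were also matched for this list. As it was made of heat shock chaperones, a share above that of other genes describes the list and not the comparison of the groups. Heat shock factor binds heat shock elements, which are inverted repeats of the unit GAA. RefSeq windows of 300 bases (250 before to 50 after the transcription start, build GRCm38.p6) were matched for 10 of the 14 genes, and not for Hsp90aa1, Hsp90ab1, Hspa8 and Hsf1. A pair of units, GAANNTTC or TTCNNGAA, each the same on both strands and free to overlap the other, was found in 8 of the 10, against 14.4% of the tested genes with a window. A run of 3 units, GAANNTTCNNGAA or on the other strand TTCNNGAANNTTC, was found in 3 of the 10 (Hspd1, Hspe1 and Hsph1) against 0.627%. The windows of Hspe1 (chr1:55087898-55088197, plus strand), Hsph1 (chr5:149636287-149636586, minus strand) and Hspa1a (chr17:34972107-34972406, minus strand) are shown 5′ to 3′ as examples of several units and of a single pair, with the paired units in capitals:
Hspe1: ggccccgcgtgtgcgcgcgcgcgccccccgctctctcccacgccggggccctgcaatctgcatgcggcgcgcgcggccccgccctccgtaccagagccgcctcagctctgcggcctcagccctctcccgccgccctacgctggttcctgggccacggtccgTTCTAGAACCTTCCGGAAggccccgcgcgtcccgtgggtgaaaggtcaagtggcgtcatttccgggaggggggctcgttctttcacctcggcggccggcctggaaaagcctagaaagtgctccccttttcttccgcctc
Hsph1: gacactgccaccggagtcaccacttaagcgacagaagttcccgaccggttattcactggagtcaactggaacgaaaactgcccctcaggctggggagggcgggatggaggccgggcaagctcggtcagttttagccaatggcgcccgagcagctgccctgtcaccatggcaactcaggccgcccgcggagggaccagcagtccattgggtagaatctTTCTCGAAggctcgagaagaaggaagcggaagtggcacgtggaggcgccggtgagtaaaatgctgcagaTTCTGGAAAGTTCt
Hspa1a: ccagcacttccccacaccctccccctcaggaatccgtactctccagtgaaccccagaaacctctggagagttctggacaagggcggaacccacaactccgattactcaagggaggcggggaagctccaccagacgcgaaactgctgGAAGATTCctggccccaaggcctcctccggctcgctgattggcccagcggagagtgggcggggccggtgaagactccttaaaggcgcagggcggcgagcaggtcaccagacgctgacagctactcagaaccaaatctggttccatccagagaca
A match of letters is a description and does not show that the factor was bound. Hspd1 overlaps Hspe1 on the opposite strand, so the same letters may count for both genes. Hsph1 had 2 windows, and the window with the most matches was printed, or the first where these were equal.

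Hsp90aa1, the inducible HSP90 chaperone, was at 130, 109 and 116 CPM in DNC-NONE and at 153, 160 and 144 CPM in DNC-INHIB, without overlap. Its log2 fold change was -0.35 ± 0.10 (edgeR adjusted p = 0.748). Hsp90ab1, its constitutive partner, was at 613, 393 and 468 CPM and at 717, 763 and 589 CPM, with DNC-NONE replicate 1 above DNC-INHIB replicate 6 (-0.48 ± 0.15). Hspa8, the constitutive HSP70, was the most abundant member, at 2145, 1744 and 1861 CPM and at 2319, 2601 and 2030 CPM (-0.28 ± 0.10).

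Among the co-chaperones, Dnaja1 was at 380, 335 and 355 CPM in DNC-NONE and at 477, 542 and 367 CPM in DNC-INHIB (-0.37 ± 0.12). Dnajb1 was at 86.0, 72.4 and 62.2 CPM and at 138, 90.1 and 82.0 CPM (-0.46 ± 0.20). Hsph1, a nucleotide exchange factor of HSP70 whose window is printed above, had a log2 fold change of -0.43 ± 0.20, and Hspe1, the mitochondrial co-chaperonin, of -0.26 ± 0.12. Ahsa2, an activator of the HSP90 ATPase that was not on the list, was at 36.0, 36.7 and 32.2 CPM and at 48.0, 60.8 and 42.1 CPM (-0.53 ± 0.16).

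Hspa1a, the inducible HSP70 whose reads are hard to tell from those of Hspa1b, stayed low in all 6 libraries. It was at 7.20, 0.941 and 1.67 CPM in DNC-NONE and at 15.2, 16.0 and 4.64 CPM in DNC-INHIB (-1.51 ± 0.71). The list as a whole gave 0.338% ± 0.0392 of UMIs in DNC-NONE and 0.421% ± 0.0530 in DNC-INHIB, with overlap (exact permutation test, p = 0.2). The within-batch differences of this share were -0.0842 percentage points in batch 1 and -0.0881 in batch 2. With batch in the fit, Dnajb1 passed (-0.63, edgeR adjusted p = 0.0380), and without DNC-NONE replicate 1 Hsp90ab1 passed (-0.67, adjusted p = 0.0154).

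**Figure D4:**
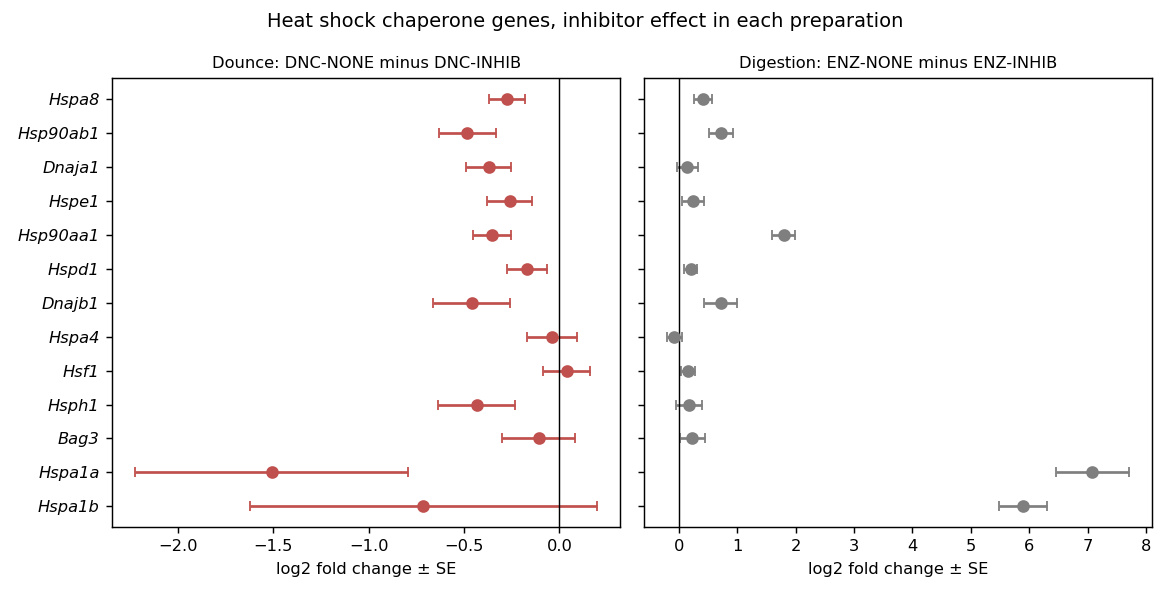
Points give the log2 fold change without minus with inhibitors (x axis, ± SE) of the 13 tested chaperone genes, ordered by level in DNC-INHIB, after Dounce (left, 12 of 13 below 0) and after digestion (right). The x axes differ in range, since Hspa1a was at -1.51 after Dounce and 7.07 after digestion.

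Activation genes differed in 1 animal. After thinning to 1000 UMIs, 29.5% of the cells of DNC-NONE replicate 1 held UMIs of at least 3 of the 19 genes that the study lists for activation in unsorted brain cells (95% exact interval 27.5% to 31.7%). The other DNC-NONE libraries had 4.33% and 5.95%, and the DNC-INHIB libraries 4.79%, 5.79% and 6.22%, so the rest of DNC-NONE overlapped the range of DNC-INHIB. The list gave 0.266%, 0.104% and 0.112% of UMIs in DNC-NONE and 0.110%, 0.117% and 0.115% in DNC-INHIB (exact permutation test, p = 0.9). Of its 17 tested genes, 13 were highest in DNC-NONE replicate 1, where 18.3% of all genes were highest. The median log2 fold change of the list was 0.51 with this library and -0.13 without it, and 0 genes were called. These 19 genes come from a separate experiment of the study. Its list of 25 genes for sorted myeloid cells gave 13 positive and 12 negative signs and a median of 0.06, which became -0.13 without DNC-NONE replicate 1, and as the study chose those genes on this series it is not independent evidence of their direction.

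Among immediate early genes, 18 of 20 tested (of 26) had a positive sign, with a median of 0.35 that became -0.12 without DNC-NONE replicate 1. In 16 of the 20 that replicate was the highest library, against 18.3% of all genes. Jun, a subunit of the AP-1 transcription factor, was at 726, 221 and 203 CPM in DNC-NONE and at 157, 197 and 172 CPM in DNC-INHIB (1.15 ± 0.62, edgeR adjusted p = 1.00). The groups did not overlap, but only the first value was far from the others. Fos, its partner, was at 37.2, 0.941 and 2.78 CPM and at 0.9505, 1.90 and 3.402 CPM (2.86 ± 1.48).

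Egr1, an early growth response transcription factor, was at 12.4, 0 and 3.33 CPM in DNC-NONE and at 2.85, 1.90 and 2.17 CPM in DNC-INHIB, where 0 UMIs in DNC-NONE replicate 2 allow up to 2.82 CPM. Dusp1, a phosphatase that turns off MAP kinases, was at 15.2, 4.70 and 2.22 CPM and at 6.18, 3.04 and 8.04 CPM (0.51 ± 0.63). Socs3, a feedback inhibitor of cytokine signals, was at 330 CPM in DNC-NONE replicate 1 and between 32.9 and 50.8 CPM in the other 5 libraries (1.73 ± 1.05). Fosb, the member with the smallest p, had 11 UMIs in DNC-NONE, 9 of them in replicate 1, and 0 in DNC-INHIB. With 1 such library, animal and treatment cannot be told apart.

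Chemokines behaved in a mixed way. Ccl3, a chemokine that recruits leukocytes, was at 44.0, 27.3 and 40.5 CPM in DNC-NONE and at 22.8, 28.1 and 24.7 CPM in DNC-INHIB (0.61 ± 0.17, edgeR adjusted p = 0.748), with DNC-NONE replicate 2 inside the DNC-INHIB range. Ccl4, its close relative, was at 71.2, 27.3 and 45.5 CPM and at 64.2, 82.1 and 38.0 CPM (-0.23 ± 0.46), with wide overlap. Il1a, interleukin 1 alpha, was at 72.4, 63.0 and 76.6 CPM and at 54.2, 59.3 and 61.2 CPM, without overlap (0.29 ± 0.12, adjusted p = 0.948). Of 9 tested members (of 14), 7 had a positive sign, 2 had an unadjusted p under 0.05 (against 2.65% of all genes) and the median was 0.49. The median was 0.06 without DNC-NONE replicate 1, 0.29 without DNC-INHIB replicate 4, and 0.33 over 7 members without cells holding other markers.

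**Figure D5:**
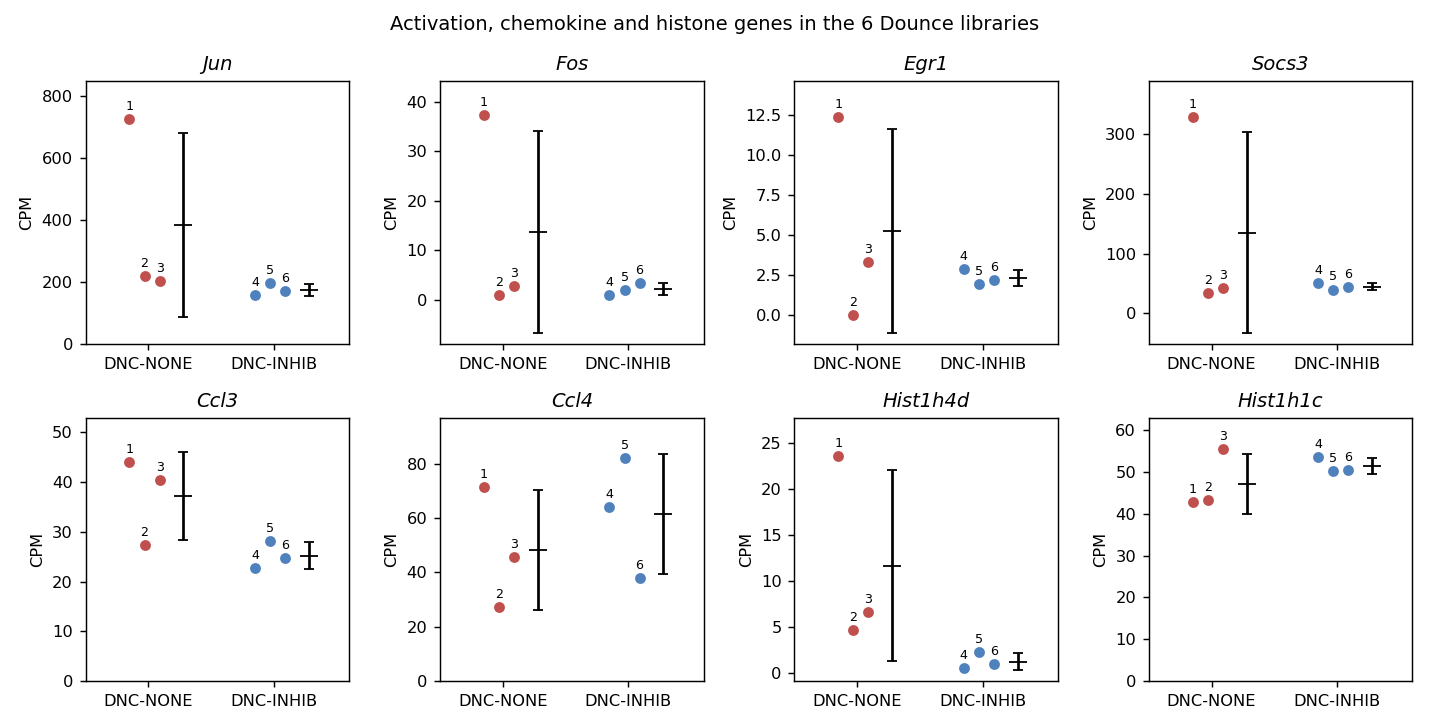
Points give CPM (y axis, linear) of activation, chemokine and histone genes in the 6 Dounce libraries, numbered by replicate, with DNC-NONE in red, DNC-INHIB in blue and bars at the mean ± SD (n = 3). DNC-NONE replicate 1 was the highest library for Jun, Fos, Egr1, Socs3, Ccl3 and Hist1h4d, while DNC-INHIB replicate 5 was the highest for Ccl4 and DNC-NONE replicate 3 for Hist1h1c.

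Histone genes pointed both ways. Replication-dependent histone mRNAs mostly lack a poly(A) tail, so a 3' kit counts few of them, and near-identical copies make single genes uncertain. Of 67 listed, 16 could be tested, 8 had a positive sign, 6 had an unadjusted p under 0.05 (against 2.65% of all genes) and all 6 were higher in DNC-NONE. The median was 0.17, 7 of the 16 were highest in DNC-NONE replicate 1 (against 18.3% of all genes), and without that library the median was 0.02. It was 0.04 without DNC-NONE replicate 3, 0.05 without DNC-INHIB replicate 4, and -0.08 without cells holding other markers. Hist1h4d, a core histone H4 gene, was at 23.6, 4.70 and 6.66 CPM in DNC-NONE and at 0.475, 2.28 and 0.928 CPM in DNC-INHIB, without overlap (3.34 ± 0.76, edgeR adjusted p = 0.748). Hist1h2ac, an H2A gene, was at 32.8, 2.82 and 2.22 CPM and had 3 UMIs in all of DNC-INHIB. Hist1h1d had 8 UMIs in DNC-NONE, 7 of them in replicate 1, and 0 in DNC-INHIB.

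Hist1h1e, a linker histone, had a log2 fold change of 1.32 ± 0.48, Hist1h2ap of 1.01 ± 0.39 and Hist1h3d of 2.03 ± 0.74. Without DNC-NONE replicate 1 these were 0.59 for Hist1h1e, 0.74 for Hist1h2ap and 0.052 for Hist1h3d, and for Hist1h4d 2.18. The more abundant Hist1h1c, another linker histone, was at 42.8, 43.3 and 55.5 CPM in DNC-NONE and at 53.7, 50.2 and 50.4 CPM in DNC-INHIB (-0.12 ± 0.13). Hist1h2bc was at 87.6, 80.9 and 83.8 CPM and at 92.7, 108 and 76.1 CPM (-0.12 ± 0.12).

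All 5 tested proliferation genes (of 8) had a positive sign, with a median of 0.88, and 4 had an unadjusted p under 0.05 (against 2.65% of all genes). In 4 of the 5 the highest library was DNC-NONE replicate 3 (against 17.0% of all genes), and without that library the median was 0.56. Without cells holding other markers 4 could be tested, with a median of 0.52 and 1 at an unadjusted p under 0.05. Hmgb2, a chromatin protein of dividing and of myeloid cells, was at 56.8, 74.3 and 95.5 CPM in DNC-NONE and at 37.1, 39.9 and 49.8 CPM in DNC-INHIB, without overlap (0.80 ± 0.18, edgeR adjusted p = 0.502). Cells with other markers held 24.3% of its UMIs, and without them it was at 0.38. Birc5, a mitotic survival protein, was at 10.8, 4.70 and 8.88 CPM and at 2.85, 2.28 and 4.02 CPM (1.47 ± 0.39). Top2a, which untangles replicated DNA, had a log2 fold change of 0.96 ± 0.41 and Cdk1, the mitotic kinase, of 0.88 ± 0.40. The list gave 0.0177% ± 0.00299 of UMIs in DNC-NONE and 0.0120% ± 0.000639 in DNC-INHIB (exact permutation test, p = 0.1).

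The 10 genes with the smallest p among those higher in DNC-INHIB were Dqx1, Hsp90aa1, Zfp282, Tbc1d5, Ahsa2, BC017643, Zfp644, Zbed3, Abca9 and Cebpg. Between 0% and 5.03% of their UMIs lay in cells with other markers, and all 10 kept an unadjusted p under 0.05 without those cells. All 10 could still be tested there, against 1 of the 10 that were higher in DNC-NONE. Dqx1, a putative RNA helicase, was at 0.800, 3.76 and 0.555 CPM in DNC-NONE and at 8.08, 9.12 and 5.57 CPM in DNC-INHIB (-2.45 ± 0.53, edgeR adjusted p = 0.156), from 7 and 59 UMIs. Cebpg, a partner of C/EBP transcription factors, was at 236, 200 and 239 CPM and at 282, 287 and 273 CPM (-0.31 ± 0.10, adjusted p = 0.791). The zinc finger genes Zfp282 (-0.82 ± 0.24), Zfp644 (-0.37 ± 0.11) and Zbed3 (-0.61 ± 0.19) had the same sign, as did Tbc1d5, a regulator of RAB proteins (-0.53 ± 0.15), the transporter Abca9 (-0.35 ± 0.11) and BC017643 (-0.32 ± 0.10).

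Microglial identity genes lay close together in the 6 libraries , as for sorted microglia. Of 18 tested, 16 had a negative sign, with a median of -0.04, and 0 had an unadjusted p under 0.05. P2ry12, the purinergic receptor of resting microglia, was at 6858, 8087 and 7674 CPM in DNC-NONE and at 7681, 7624 and 7078 CPM in DNC-INHIB (0.01 ± 0.08). Tmem119, a microglial membrane protein, was at 3436, 3997 and 3527 CPM and at 4444, 3693 and 3568 CPM (-0.10 ± 0.09). Cx3cr1, the fractalkine receptor, ran from 2169 to 2364 CPM and from 2263 to 2418 CPM (-0.04 ± 0.08).

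Disease-associated microglia genes had a median of 0.31 over 10 tested, and 0.11 without cells holding other markers. It was 0.15 without DNC-NONE replicate 3 and 0.17 without DNC-NONE replicate 2. Lgals3, galectin 3, was at 115, 74.3 and 53.3 CPM in DNC-NONE and at 27.6, 44.9 and 33.7 CPM in DNC-INHIB (1.22 ± 0.36), and 76.7% of its UMIs lay in those cells. Cd63, a lysosomal tetraspanin, had 3.85% there and was at 812, 868 and 920 CPM and at 734, 718 and 769 CPM, without overlap (0.22 ± 0.09, edgeR adjusted p = 0.917). Apoe, the lipid carrier apolipoprotein E, ran from 1945 to 4790 CPM and from 1521 to 2815 CPM (0.46 ± 0.49). Interferon-stimulated genes had a median of 0.18 over 11 tested, and of -0.37 without those cells, with 3 then at an unadjusted p under 0.05 and lower in DNC-NONE (against 2.27% of all genes). With all cells, the median was 0.084 without DNC-INHIB replicate 5, 0.095 without replicate 4, 0.52 without replicate 6 and 0.35 without DNC-NONE replicate 3.

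Lists that bear on transcription and translation gave medians between -0.18 and 0.12, against 0.0018 over all genes. These were 0.01 for 19 RNA polymerase II and elongation genes and -0.04 for 95 genes with symbols like those of cytosolic ribosomal proteins. That list was made by a pattern of symbols, which also takes in kinases such as Rps6ka1 and some pseudogenes. The median was 0.01 for 13 mitochondrially encoded genes and 0.01 for 14 other short-lived transcripts. For 12 genes of the integrated stress and unfolded protein response the median was -0.06, for 15 NF-kB genes 0.04, for 10 p53 targets 0.04 and for 5 snoRNA host genes -0.18. The median was 0.12 for 10 nuclear or ribosomal-RNA-like transcripts. Malat1, the most abundant of these, was at 64542, 56339 and 51611 CPM in DNC-NONE and at 58453, 58676 and 59789 CPM in DNC-INHIB (-0.04 ± 0.07). In each of these 9 lists at most 2 members had an unadjusted p under 0.05. The 2 were among the 10 p53 targets, both higher in DNC-INHIB (against 2.27% of all genes). DNC-INHIB lay wholly above DNC-NONE in 2 p53 targets and 3 nuclear or ribosomal-RNA-like transcripts (against 5.02% of all genes), and wholly below in 0 of either list. All 5 snoRNA host genes had a negative sign, as had 66 of the 95 genes with ribosomal protein symbols and 10 of the 12 stress response genes. Over all genes 4892 of 9884 had a negative sign. In each of the other lists of this paragraph more members had a positive than a negative sign. Gas5 was not analysed here.

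The inhibitors had a smaller effect on some genes after Dounce than after digestion, and the difference itself was tested. Of 9884 genes, 6 (0.0607%) had a different inhibitor effect in the 2 preparations by edgeR's interaction term, and in all 6 the effect was the lower after Dounce. Hist1h1c was at 190, 210 and 233 CPM in ENZ-NONE and at 33.9, 29.8 and 48.3 CPM in ENZ-INHIB, while its 6 Dounce values ran from 42.8 to 55.5 CPM. The difference of the effects was -2.65 on the log2 scale (adjusted p = 1.68e-07). Hsp90aa1 was at 500, 310 and 515 CPM in ENZ-NONE and at 107, 135 and 150 CPM in ENZ-INHIB, so its effect was 1.79 ± 0.19 after digestion and -0.35 ± 0.10 after Dounce (difference -2.15, adjusted p = 0.0151).

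Hist1h2bc (difference -1.72), Rgs1, a regulator of chemokine receptor signalling (-1.93), and Rhob, a small GTPase (-0.74), were also among them. After Dounce their own log2 fold changes were -0.12 ± 0.12, -0.07 ± 0.17 and -0.14 ± 0.09. The interaction genes named here are all on the study's list for sorted myeloid cells, which was chosen on this series. The enzyme groups themselves gave 28 calls (0.283%), all higher in ENZ-NONE. For Hspa1a the difference was -8.56 ± 1.17 and did not pass (adjusted p = 0.0822).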

How the data were processed

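Whole-brain CD45 and CD11b positive cells of 12 mice were sequenced with a 10X Genomics 3' version 2 kit, and 6 of these libraries are described here. The authors deposited UMI counts per gene and barcode for each library, with 31053 genes and no normalization. The submitters' processing notes name bcl2fastq, Cell Ranger 3.0.0, Seurat and the build GRCm38 (mm10). Strand use in counting is not given in the sources used here. Of 65 genes given with fold changes, 16 overlap another annotated gene on the same strand and 20 on the opposite strand, and their counts are uncertain, as are those of histone genes and of Hspa1a and Hspa1b.

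Barcodes with at least 500 genes, 1000 UMIs and at most 10% mitochondrial UMIs were kept. No doublet caller was run, so cells with markers of several types may be doublets. Counts were summed per library (1062871 to 3233159 UMIs), and 9884 genes passed edgeR's filterByExpr with a minimum count of 10 over all 12 libraries. The main test was edgeR 4.0.16 quasi-likelihood with TMM and robust fitting (R 4.3.3), on the 6 Dounce libraries with no covariate. A gene was called at a Benjamini-Hochberg adjusted p under 0.05 and a log2 fold change over 0.58 in size (1.5-fold). The interaction with digestion used all 12 libraries, and 1 of its 6 genes is not reported here. DESeq2 1.42.0 was an alternative. Single values were compared by exact two-sided permutation over 20 splits, whose smallest p is 0.1. Python 3.11.15, numpy 2.4.6, pandas 2.3.3 and scipy 1.17.1 gave the other values, and 95% intervals are Clopper-Pearson and cover counting error only. Each library is labelled as a separate sample, and each was taken as 1 animal.

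Tested on simulated data for this comparison (9884 genes), edgeR recovered 32%, 90%, 100% and 100% of 50 genes each changed 1.5-, 2-, 4- and 8-fold, with 3 false calls. Genes below a minimum mean count were not among those changed, so these rates do not cover genes with few UMIs. By rule the named genes were the 10 with the smallest p in each direction, in each list the 2 with the highest mean CPM and the tested member with the smallest p, 16 set genes (Fos, Jun and the like) and any gene called in any fit. Not all of these are printed, and further list members were added after their values were seen. The comparison, lists and genes were chosen with earlier results of these data known. Promoter windows are from RefSeq.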

Additional observations from a re-analysis of the deposited data

Results flagged for a closer look

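For 6 genes, 5 of them given here, the effect of the inhibitors differed between cold Dounce homogenization and enzymatic digestion, by the interaction term of edgeR's quasi-likelihood test over 9884 genes. On the log2 scale, the effect after Dounce minus that after digestion was -2.645 for Hist1h1c (adjusted p = 1.68e-07), -2.147 for Hsp90aa1 (adjusted p = 0.0151) and -1.926 for Rgs1 (adjusted p = 0.00375). It was -1.719 for Hist1h2bc (adjusted p = 2.55e-06) and -0.7443 for Rhob (adjusted p = 0.0151). For each of these 5, the effect after digestion was positive. That after Dounce was negative but, except for Hsp90aa1, small. With 1 library left out it ran from -0.20 to 0.0198 for Rgs1, -0.25 to 0.0129 for Hist1h2bc and -0.26 to -0.0214 for Hist1h1c. It ran from -0.18 to -0.092 for Rhob and -0.43 to -0.30 for Hsp90aa1. All 5 are on the study's list for sorted myeloid cells, chosen on this series, so their direction after digestion is not independent evidence.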

How the results depend on the processing

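The count of 2 called genes became 39 with no filter on low counts (35 higher and 4 lower in DNC-NONE), 8 in cells with at least 1000 genes and 2000 UMIs, and 1 with DESeq2 over all 12 libraries, an alternative chosen after seeing the data. It became 0 with edgeR over all 12 libraries (444 genes at an unadjusted p under 0.05), 0 with all deposited barcodes (396), 0 without cells holding other markers (406) and 0 with library sums thinned to the smallest (485). There were 486 as reported and 157 with DESeq2. Leaving out 1 library gave 0 to 19 calls. There were 19 without DNC-NONE replicate 3, 4 without DNC-NONE replicate 1, 5 without DNC-INHIB replicate 6, and 0 without DNC-INHIB replicate 4 or 5. The 6 genes of the interaction became 19 with DESeq2, 16 with no filter and 10 with batch as a covariate, and 4 to 9 with 1 library left out. The cause of these moves was not tested.

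The 19-gene share differed by 0.0468 percentage points, and by -0.00581 to 0.0751 with 1 library left out, the lowest without DNC-NONE replicate 1. The border macrophage share differed by 0.846 points (0.238 to 1.15, the lowest without DNC-NONE replicate 2, and 0.335 with all barcodes), median UMIs by -118 (-149 to -76.9) and the share of barcodes kept by -18.7 points (-28.7 to -9.53, the smallest without DNC-NONE replicate 2).

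Over 65 genes and 806 alternatives, 748 values kept direction and side of the threshold, 16 newly passed it, 16 lost it and 26 reversed, in 16 genes. In cells with at least 1000 genes and 2000 UMIs the log2 fold change was 0.47 for Hspa1a, 0.90 for Ccl4, -0.59 for Egr1, 0.27 for Hist1h1c, -0.16 for Cd74, -0.50 for Mrc1, -0.28 for P2ry12 and -0.0149 for Apoe. Without cells holding other markers it was -0.20 for Ccr2 and -0.43 for Mrc1, but both genes are themselves markers that define the cells removed. With all barcodes it was 0.00796 for Cx3cr1 and 0.0246 for Malat1, and with thinned sums 0.0341 for Hist1h1c. With 1 library left out it ran from -0.11 to 3.44 for Fos, -0.13 to 1.86 for Egr1, -0.88 to 0.97 for Dusp1 and -0.21 to 2.15 for Socs3, each lowest without DNC-NONE replicate 1. It ran from -0.0402 to 0.97 for Mrc1, -0.0378 to 0.0771 for P2ry12 and -0.0562 to 0.73 for Apoe, lowest without DNC-NONE replicate 2. It ran from -0.13 to 0.0276 for Malat1 and -0.20 to 0.0198 for Rgs1, highest without DNC-NONE replicate 3. It ran from -0.66 to 0.0502 for Ccl4 and -0.25 to 0.0129 for Hist1h2bc, highest without DNC-INHIB replicate 5.

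No paired analysis was made, since each library was taken as a separate animal and the labels name no pairs. Batch, which spans both Dounce groups, was a covariate in an alternative fit only.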
